A study of Anopheles gambiae with 8 samples.

Results

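The thioester-containing proteins (TEPs) are a family of secreted immune proteins of the malaria mosquito Anopheles gambiae, and 8 of their genes were followed in a cell line given a steroid hormone. They were picked from the table by gene identifier, as TEP1 (AGAP010815), TEP2 (AGAP008366), TEP3 (AGAP010816), TEP4 (AGAP010812), TEP6 (AGAP010814), TEP9 (AGAP010830), TEP12 (AGAP008654) and TEP15 (AGAP008364). This rule used no measured value, but the members were listed with earlier results of these data known. The listed genes make up 8 of the 13763 genes in the table. All 8 had at least 1 count, and 6 of them passed the filter on low counts, which left 8180 genes for testing.

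TEPs belong to the same superfamily as the vertebrate complement factors and the alpha-macroglobulins. Many of them carry an internal thioester bond that can attach the protein covalently to a nearby surface. TEP1 is the best studied member in this mosquito: it circulates in the hemolymph in a complex with leucine-rich repeat proteins, binds bacteria and Plasmodium ookinetes, and marks them for lysis or melanization. Much less is known of what the other members do, although TEP3 and TEP4 have been studied as antibacterial or antiparasitic factors.

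The study asked how 20-hydroxyecdysone (20E), the active insect steroid hormone, alters gene expression in Sua 4.0, a cultured Anopheles gambiae line. The 20E group was exposed for 24 h to 20E in 10% ethanol by the submitters' description, at 500 ng/ml by the study's methods, and the control group (EtOH) received ethanol without the hormone for the same time. The study's methods differ on the vehicle, naming undiluted ethanol as the solvent and, in a comparable volume, as the control. Each group had 4 stranded poly(A) RNA-seq libraries, independent biological replicates by the study's methods, and a single line stands for the species throughout. The libraries held between 6865599 and 14878014 gene-assigned counts. Libraries with the same replicate number deviated together (correlations 0.63 to 0.82 across 8180 genes, against 0.08 at most for other numbers), so each 20E library has a partner of its own. Replicate 1 was the shallowest library in both groups. The labels give no tissue for Sua 4.0. Of 7 identifiers drawn up as hemocyte markers, 5 had a median above 1 CPM (a count scaled to library size) in either group, as did both of 2 for the fat body and 0 of 3 for the midgut. Their summed levels ran from 1395 to 5676 CPM with 20E and 922 to 7131 CPM in EtOH for the hemocyte list, from 2197 to 5035 and 1050 to 2710 CPM for the fat body list, and from 0.231 to 1.81 and 0.181 to 0.856 CPM for the midgut list. On average most of the hemocyte sum was AGAP029054, with means of 2056 CPM with 20E and 2373 CPM in EtOH. Both means were raised by the highest library of the group (5436 and 6690 CPM, against medians of 955 and 1041 CPM). Other hemocyte entries went opposite ways, such as AGAP004981 (588 against 283 CPM) and AGAP012386 (9.60 against 29.4 CPM, 20E against EtOH). The fat body range reached higher with 20E and overlapped that of EtOH. Its entries went opposite ways, with means of 2807 against 1427 CPM for AGAP001826, which makes up most of the sum, and 163 against 209 CPM for AGAP004203 (20E against EtOH), and their part in the values for the TEPs was not tested.

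After 20E, TEP2 and TEP15 were lower by about the same amount. TEP4, TEP6 and TEP1 were higher on average but varied widely from replicate to replicate. TEP3, the most abundant of the listed TEPs, differed by a log2 ratio of -0.12 to 0.13 in every pair. None of the 6 tested TEPs was called at an adjusted p of 0.1 by edgeR's quasi-likelihood test when replicate number was left out of the fit, where 0.795% of the 8180 tested genes were called. With replicate number as a block, which takes up the pairing of the libraries, 4 of the 6 were called, 2 of them lower (TEP2 and TEP15) and 2 higher (TEP4 and TEP6), beside 17.4% of all tested genes.

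Apart from any response, the 8 listed TEPs, which may not be the whole family, were strongly graded in abundance. Levels are given as CPM, with library sizes adjusted by the trimmed mean of M-values. Genes are ranked against each other per kilobase of gene span, the sole length in the table, which includes introns. TEP3 came first with a level of 166 CPM per kb over the 8 libraries. TEP15 with 25.6 and TEP2 with 24.2 CPM per kb followed, and TEP15 lay above TEP2 in 4 of 8 libraries. Their order depends on the length used, as the span is 13957 bp for TEP15 and 5100 bp for TEP2. In CPM, TEP15 was the higher, at 134 to 422 with 20E and 370 to 553 in EtOH. TEP2 was at 51.6 to 99.1 and 138 to 201 CPM in the same groups. Exon lengths were not used, so their order could not be set. TEP3, with a span of 4819 bp, exceeded TEP15 in 8 of 8 libraries, by 3.79 to 16.4 times per kb. This gap is wider per kb than in CPM, where TEP3 was at 661 to 1095 with 20E and 650 to 1075 in EtOH.

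TEP1, at 9.24 CPM per kb, was below TEP2 in 7 of 8 libraries and above TEP6, at 6.98 CPM per kb, in 6 of 8. TEP4 followed at 0.445 CPM per kb and was below TEP6 in 8 of 8 libraries. TEP12 and TEP9 were barely detected. TEP12 was counted 36 times with 20E (20, 8, 5 and 3 in replicates 1 to 4) and 13 times without it (8, 3, 2 and 0). TEP9 had 1 count in all, in replicate 1 of the 20E group. Both stayed under the filter, and no difference between the groups was detectable at this depth (edgeR without a filter, adjusted p = 0.964 for TEP12 and 0.970 for TEP9, and 0.339 and 0.787 with the replicate block).

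The mean shares of the 8 TEPs in their summed level differed between the groups, and this difference was not tested. As a share of the summed per-kb level of all 8 TEPs, TEP3 took 75.0% ± 2.13 (SD, n = 4) with 20E and 67.6% ± 4.09 (SD, n = 4) in EtOH. The share of TEP15 was 7.55% with 20E against 14.0% in EtOH, and that of TEP2 was 7.37% against 13.4%, whereas TEP1 took 5.37% against 2.73% and TEP6 took 4.19% against 2.03%. The TEP1 shares overlapped between the groups, with 3.72 to 8.05% in the 20E libraries and 1.62 to 4.80% in the EtOH libraries. Shares sum to a fixed total, so that of TEP3 can move without any change in TEP3 itself. Taken per kb of span, they also weigh the long TEP15 less than shares of CPM would. Summed over the 8 listed TEPs only, the level was 1033 to 1726 CPM with 20E (median 1091) and 1294 to 1850 CPM in EtOH (median 1408), and each 20E library had a smaller sum than its partner, with log2 ratios of -0.32, -0.49, -0.10 and -0.24 in pairs 1 to 4. Summed per kb of span, where the long TEP15 weighs less, the ratios were -0.22, -0.28, -0.03 and -0.015.

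**Figure D1:**
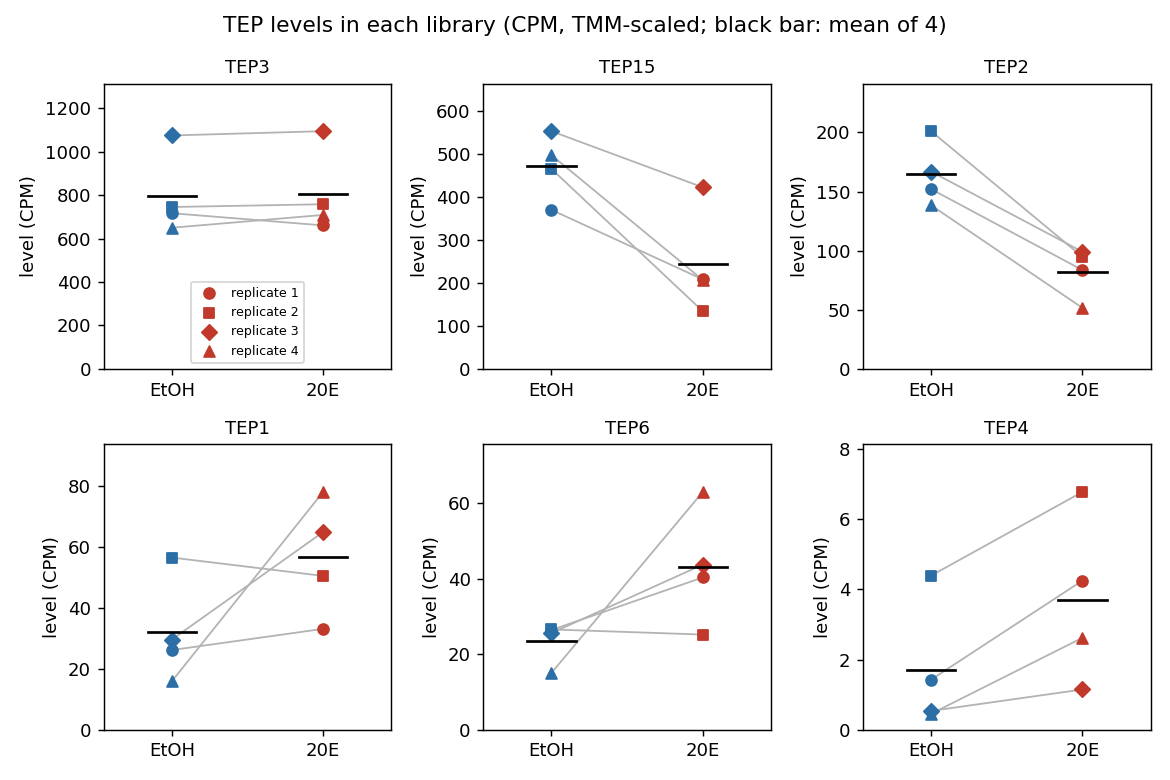
Level of the 6 tested TEP genes in each library in CPM (y axes start at 0 and differ between panels), with blue symbols for EtOH, red symbols for 20E, grey lines joining libraries of the same replicate number and black bars for the mean of 4. TEP2 and TEP15 fall along all 4 lines, TEP4 climbs along all 4, TEP3 is nearly flat, and TEP1 and TEP6 dip slightly in replicate 2 only.

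TEP2 was lower after 20E in every library. Its level was 83.6, 94.8, 99.1 and 51.6 CPM in 20E replicates 1 to 4 and 152, 201, 167 and 138 CPM in the matching EtOH libraries. Every 20E library therefore lay below every EtOH library, and TEP2 was the only 1 of the 6 tested TEPs whose groups did not overlap, where 4.73% of the 8180 tested genes had groups that did not overlap. The group means were 82.3 ± 21.4 CPM with 20E and 165 ± 26.9 CPM in EtOH (SD, n = 4 each). The log2 fold change was -1.0 (SE 0.23), with an adjusted p of 0.160 in the edgeR fit without the block, and -1.03 (SE 0.12), with an adjusted p of 4.94e-04, with the block. This is a 2.04-fold lower level. The log2 ratios in the 4 pairs were -0.86, -1.08, -0.75 and -1.42, a range of 0.67. TEP2 was among the genes the study itself picked from these libraries for follow-up by qRT-PCR, so its direction here is not independent evidence. The study describes that set as differentially expressed in its own edgeR analysis. The fit without the block used here, at the same limit, did not call TEP2.

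TEP15, whose span ends 1.71 kb before that of TEP2 begins, was lower to the same degree. It stood at 208, 134, 422 and 207 CPM in 20E replicates 1 to 4 and at 370, 465, 553 and 497 CPM in EtOH replicates 1 to 4. The groups overlapped through 20E replicate 3, the highest of its group, which was above EtOH replicate 1, the lowest of the controls. Within pairs the 20E library was always the lower, by log2 ratios of -0.83, -1.79, -0.39 and -1.27. With means of 243 ± 124 and 471 ± 76.7 CPM (SD, n = 4 each), the log2 fold change of TEP15 was -0.96 (SE 0.33) in the edgeR fit without the block, with an adjusted p of 0.515. It was -1.07 (SE 0.19) with the block, with an adjusted p of 0.00614 and a 2.10-fold lower level. Without the block, TEP15 was called only once 20E replicate 3 was left out (log2 fold change -1.37, edgeR adjusted p = 0.0986).

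TEP3 moved least of the 6 between the groups. Its level was 661, 758, 1095 and 709 CPM in 20E replicates 1 to 4 and 717, 746, 1075 and 650 CPM in EtOH replicates 1 to 4. The high value of replicate 3 appeared in both groups, and the pairs moved together while differing from each other by up to 1.65-fold within EtOH. The pair log2 ratios were -0.12, 0.02, 0.03 and 0.13. The log2 fold change with the block was 0.01 (SE 0.09, edgeR adjusted p = 0.940), the smallest SE of the 6 TEPs, and 0.02 (SE 0.23, adjusted p = 0.999) without it.

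TEP1 was higher after 20E on average without passing the test. It measured 33.1, 50.4, 64.8 and 78.0 CPM in 20E replicates 1 to 4, and 26.1, 56.4, 29.5 and 15.8 CPM in EtOH replicates 1 to 4. The groups overlapped, with EtOH replicate 2 above 20E replicates 1 and 2, and the EtOH libraries alone spanned 3.56-fold. Pair log2 ratios ran from -0.16 in replicate 2, through 0.34 and 1.13 in replicates 1 and 3, to 2.30 in replicate 4. The means were 56.6 ± 19.3 and 32.0 ± 17.3 CPM (SD, n = 4 each). The log2 fold change was 0.82 (SE 0.39, edgeR adjusted p = 0.816) without the block and 0.89 (SE 0.32, adjusted p = 0.108) with it. TEP1 lay close to the limit, and among the 7 variations of the fit with the block it was called in 4. These were edgeR without the filter (adjusted p = 0.0158), limma-voom (adjusted p = 0.0810) and edgeR without replicate 1 (adjusted p = 0.0945) or replicate 2 (adjusted p = 0.0230, log2 fold change 1.29) of both groups. It was not called in DESeq2 (adjusted p = 0.302) or in edgeR without replicate 3 (adjusted p = 0.298) or replicate 4 (adjusted p = 0.286, log2 fold change 0.44).

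TEP6, the neighbour of TEP1 on chromosome arm 3L, showed the same order of pairs. Its level was 40.3, 25.2, 43.7 and 62.9 CPM in 20E replicates 1 to 4 and 26.4, 26.5, 25.6 and 15.02 CPM in EtOH replicates 1 to 4. Replicate 2 again showed no rise, with a log2 ratio of -0.08, while pairs 1, 3 and 4 gave 0.61, 0.77 and 2.06. The log2 fold change was 0.88 (SE 0.30, edgeR adjusted p = 0.503) without the block and 0.84 (SE 0.27, adjusted p = 0.0787) with it, a 1.79-fold higher level. This call rested on several libraries: without replicate 1, 3 or 4 of both groups the adjusted p in the edgeR fit with the block was 0.104, 0.187 and 0.186, and without replicate 4 the log2 fold change dropped to 0.44. With all libraries kept, DESeq2 with the block did not call TEP6 (adjusted p = 0.238).

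TEP4 was scarce, and its response is known with less precision. It had 27, 98, 19 and 34 counts in 20E replicates 1 to 4, or 4.25, 6.78, 1.15 and 2.62 CPM. The EtOH libraries held 10, 47, 7 and 5 counts, or 1.43, 4.39, 0.534 and 0.452 CPM. Replicate 2 was the top library of each group and the values of the groups overlapped, yet each 20E library was above its own partner, by log2 ratios of 1.53, 0.62, 1.04 and 2.42. The log2 fold change was 1.11 (SE 0.80, edgeR adjusted p = 0.999) without the block and 1.299 (SE 0.36, adjusted p = 0.0449) with it, a 2.46-fold higher level. TEP4 was not called with the block when replicate 1, 3 or 4 was left out of both groups (edgeR adjusted p = 0.105, 0.107 and 0.170).

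**Figure D2:**
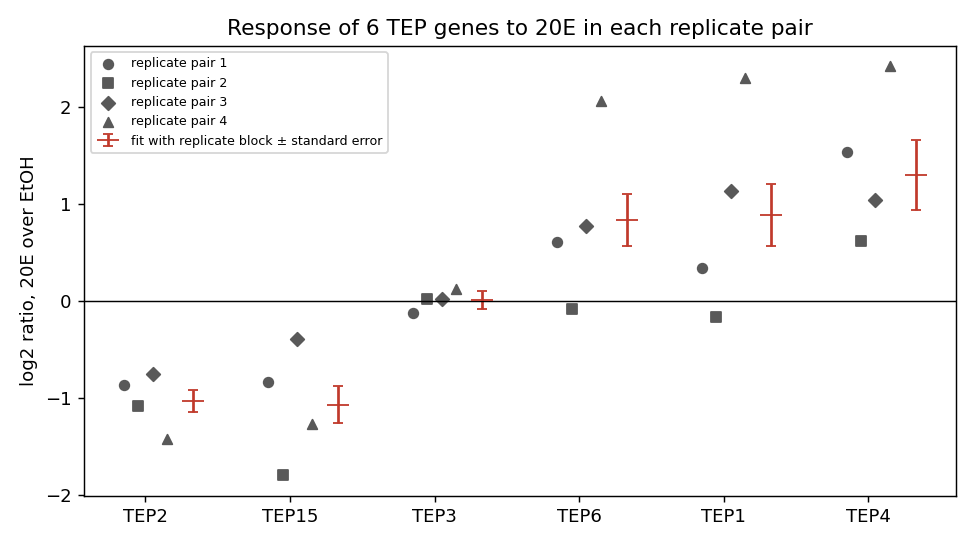
Log2 ratio of 20E over EtOH in each of the 4 replicate pairs for the 6 tested TEP genes (grey symbols), with the estimate of the fit with the replicate block and its standard error in red. The ratios of TEP2 (-1.42 to -0.75) and TEP3 (-0.12 to 0.13) lie close together, while those of TEP6, TEP1 and TEP4 reach above 2 in pair 4 only.

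The counts of TEPs called were read against the whole table. With the block, 17.4% of the 8180 tested genes were called in either direction, 8.34% higher and 9.11% lower, beside 4 of 6 TEPs. Without the block 0.795% of genes were called and 0 of 6 TEPs. At an unadjusted p under 0.05 in that edgeR fit the figures were 6.81% of genes and 3 of 6 TEPs (TEP2, TEP6 and TEP15). Without the block and at an adjusted p of 0.1, DESeq2 called 195 genes, 1 of them a listed TEP (TEP2). Under the same limit limma-voom called 62 genes and 0 of the listed TEPs. The same direction in 4 of 4 pairs was seen for 33.2% of tested genes and for 3 of 6 TEPs (TEP2 and TEP15 lower, TEP4 higher). The median log2 fold change with the block was 0.43 over the 6 TEPs and 0.01 over all tested genes. This TEP median describes no member: it falls in the gap between TEP3 (0.01) and TEP6 (0.84), with TEP2 (-1.03) and TEP15 (-1.07) lower. With 6 genes these shares are coarse, and TEP2 and TEP15 were the TEPs called in the fit with the block and in all 7 of its variations (another tool, no filter, or a replicate left out).

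The responses of the members were then set against each other. The log2 ratio of 2 TEPs was taken within each library, where library scaling cancels out, and its mean was compared between 20E and EtOH. Of 28 possible pairs of members, 15 involved the 6 TEPs with enough counts, and 6 of the 15 passed an adjusted p of 0.1 by a two-sided exact permutation test of 4 libraries against 4, adjusted over the 15 pairs. Each of the 6 had the smallest p such a design allows, 0.0286, with an adjusted p of 0.0714. The test does not use the pairing of the libraries. The exact sign-flip test on the 4 replicate pairs called 0 of 15, as it cannot go below p = 0.125, and the permutation test called 0 when replicate 3 or replicate 4 of either group was left out (smallest adjusted p 0.107 and 0.143).

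These pairs set TEP2 or TEP15 against TEP1, TEP3 or TEP6. TEP1 gained 1.93 log2 units on TEP2 and 1.97 on TEP15, while the ratio of TEP2 to TEP6 changed by -1.87 and TEP6 gained 1.91 on TEP15. TEP3 gained 1.04 on TEP2 and 1.08 on TEP15, which shows the drop of both genes relative to the most abundant of the listed TEPs. The ratios of TEP2 to TEP4 and of TEP4 to TEP15 changed further, by -2.43 and 2.47 log2 units, but were more variable and did not pass (adjusted p = 0.122 and 0.171, exact permutation test).

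Between TEP2 and TEP15 the difference was 0.04 log2 units, within a range of -0.36 to 0.71 over the 4 replicate pairs. Between TEP1 and TEP6 it was 0.06, within -0.27 to 0.36. Neither pair passed the exact permutation test (adjusted p = 1 and 0.949), which does not show that the genes of a pair respond alike beyond the ranges given. TEP3 was not separated from TEP1 (0.89 log2 units, adjusted p = 0.171), TEP6 (0.83, adjusted p = 0.161) or TEP4 (1.39, adjusted p = 0.312) by the same exact test. The pairs share genes and so are not independent of each other.

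**Figure D3:**
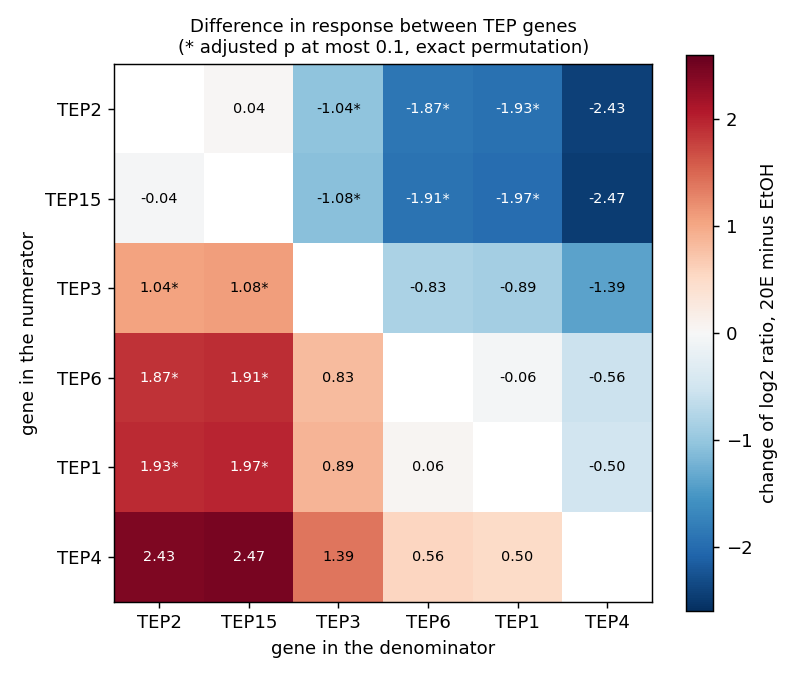
Change of the log2 ratio of the row gene over the column gene, 20E minus EtOH, for the 15 pairs of tested TEP genes, shown with both signs (red higher, blue lower); asterisks mark an adjusted p of at most 0.1 by exact permutation. The asterisks set TEP2 and TEP15 against TEP3, TEP6 and TEP1, and the TEP2 to TEP15 and TEP6 to TEP1 cells are near 0.

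The genes lie in separate groups along chromosome 3 of the AgamP4 assembly. On arm 3L are TEP4 (11001288 to 11007349, plus strand), TEP6 (11185704 to 11190462, minus), TEP1 (11202091 to 11206882, minus), TEP3 (11215246 to 11220064, minus) and TEP9 (11595534 to 11600216, plus). On arm 3R are TEP15 (10061667 to 10075623, minus), TEP2 (10077333 to 10082432, minus) and, farther off, TEP12 (14064429 to 14067173, minus). No TEP span overlaps that of another gene. All 6 pairs that passed the exact test joined a 3R with a 3L gene, out of 8 such pairs, and 0 of the 7 pairs on the same arm passed. All 8 pairs across arms had the same direction in 4 of 4 replicate pairs, as had 2 of the 7 pairs on the same arm (TEP3 with TEP4 and TEP4 with TEP6). This grouping by arm was noticed after the values were seen. Within 3L, TEP3 lies 8.36 kb from TEP1, and their responses were not separated by that test.

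The surroundings of the called TEPs were looked at within 20 kb. Beside TEP2 and TEP15 themselves, 1 neighbour was called in the fit with the block, AGAP008368, just past the far end of TEP2 at 10083049 to 10087589 on the minus strand of 3R, with a log2 fold change of -0.53 (SE 0.15, edgeR adjusted p = 0.0527, and 0.757 without the block). The table gives no gene names, so whether AGAP008368 is itself a TEP could not be checked. Within 20 kb TEP15 had 7 neighbours, 6 of them tested, and TEP2 had 9, 5 of them tested. The next genes outward, AGAP008363 (log2 fold change -0.16) and AGAP008369 (0.77, edgeR adjusted p = 0.205), were not called. TEP6 had 1 tested neighbour, TEP1, and TEP4 had 0 genes within 20 kb.

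**Figure D4:**
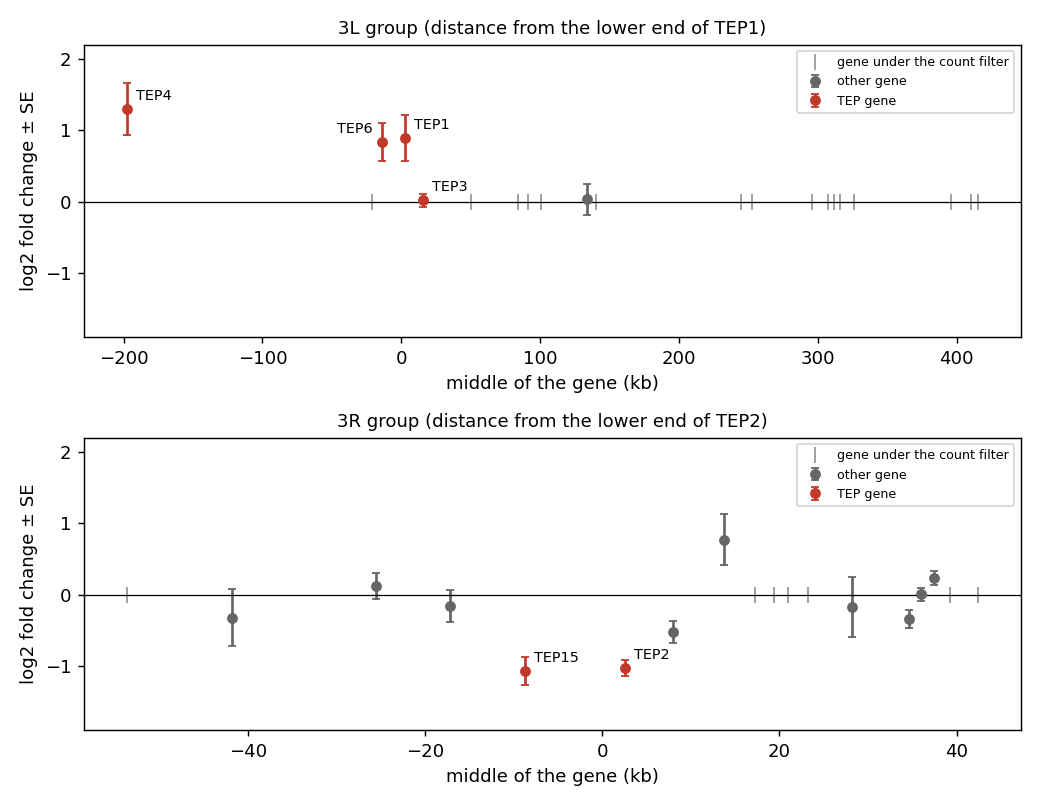
Log2 fold change with its standard error in the fit with the replicate block against the middle of each gene, in kb from the lower end of TEP1 (upper panel) or TEP2 (lower panel), with the listed TEP genes in red, tested genes outside that list in dark grey and genes under the count filter as ticks at 0. On 3R the points below -0.5 are TEP15, TEP2 and AGAP008368, and on 3L TEP4, TEP6 and TEP1 are positive with TEP3 at 0.01.

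The libraries also tell which genes ran most closely with each TEP. Across 6837 genes with a mean of at least 5 CPM, and over the 8 libraries, the highest Pearson correlations of log2 CPM outside the listed TEPs were 0.96 for TEP2 (AGAP003725), 0.95 for TEP15 (AGAP000813), 0.97 for TEP1 (AGAP012933), 0.97 for TEP3 (AGAP002933), 0.97 for TEP4 (AGAP001659) and 0.94 for TEP6 (AGAP002315). Within the family TEP1 and TEP6 reached 0.78 and TEP2 and TEP15 reached 0.72. With the replicate means taken out these were 0.99 and 0.94, while TEP4 and TEP6 also reached 0.94. The closest genes outside the listed TEPs then reached 0.997 for TEP1 (AGAP003919) and 0.999 for TEP6 (AGAP001648), TEP2 (AGAP006475) and TEP15 (AGAP006580). The 8 points share their treatment groups, replicate pairs and libraries, so the correlations are descriptions only.

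TEP1 acts with other proteins, and 18 identifiers were drawn up for the complement-like pathway around it: leucine-rich repeat partners, clip-domain proteases and their homologs, nitration enzymes, NF-kB factors and their inhibitors, C-type lectins and a serpin. The table does not pair identifiers with names, so they are given by identifier, and the group that each was entered under could not be checked. Of the 17 tested, 0 were called without the block, and 0 had an unadjusted p under 0.05 in that edgeR fit. With the block 3 were called higher and 3 lower, beside 8.34% and 9.11% of all tested genes. The median log2 fold change over the 17 was 0.30 with the block and 0.28 without it.

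Among the 4 identifiers entered as leucine-rich repeat partners, AGAP007033 and AGAP007036 rose in the fit with the block, by 0.68 (SE 0.19, edgeR adjusted p = 0.0498) and 0.69 (SE 0.21, adjusted p = 0.0602) on the log2 scale. AGAP007033 measured 24.9, 234, 257 and 458 CPM in 20E replicates 1 to 4 and 13.3, 224, 192 and 171 CPM in EtOH. AGAP007036 measured 3.15, 66.2, 66.2 and 86.4 CPM with 20E and 2.0, 61.8, 46.2 and 30.3 CPM in EtOH. As for TEP1 and TEP6, the pair of replicate 4 had the greatest ratio and that of replicate 2 the least. AGAP007035 had 184 counts in all and was not called (0.39, edgeR adjusted p = 0.626 with the block), and AGAP006348 had 0 counts in all 8 libraries.

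Replicate 1 stood apart for some of these identifiers and not for TEP1. For AGAP007033, AGAP007036 and AGAP007035, both libraries of replicate 1 were below all 6 others, whereas TEP1 in replicate 1 (33.1 CPM with 20E and 26.1 CPM in EtOH) lay within the 15.8 to 78.0 CPM of the other libraries. Both libraries of replicate 1 were also below all others for 3 more of the 18 identifiers. These were AGAP005335 (at most 1.14 CPM in replicate 1 and at least 21.0 CPM elsewhere) and AGAP005334 (0.472 and 14.9 CPM), both entered as C-type lectins. The last, by a narrow gap, was AGAP007938 (82.9 and 89.1 CPM), entered with the NF-kB factors and inhibitors. The share of all tested genes with this pattern was not counted, so it cannot be called a trait of this list. The remaining calls in the list were AGAP011788, entered with the clip-domain proteins, which was higher by 0.84 (SE 0.27, edgeR adjusted p = 0.0717 with the block), and 3 that were lower. These were AGAP009515 (-0.50, SE 0.10, adjusted p = 0.0122) and AGAP006747 (-0.31, SE 0.10, adjusted p = 0.0867), both entered with the NF-kB factors and inhibitors, and AGAP009033 (-0.36, SE 0.12, adjusted p = 0.0826), entered as a nitration enzyme.

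**Figure D5:**
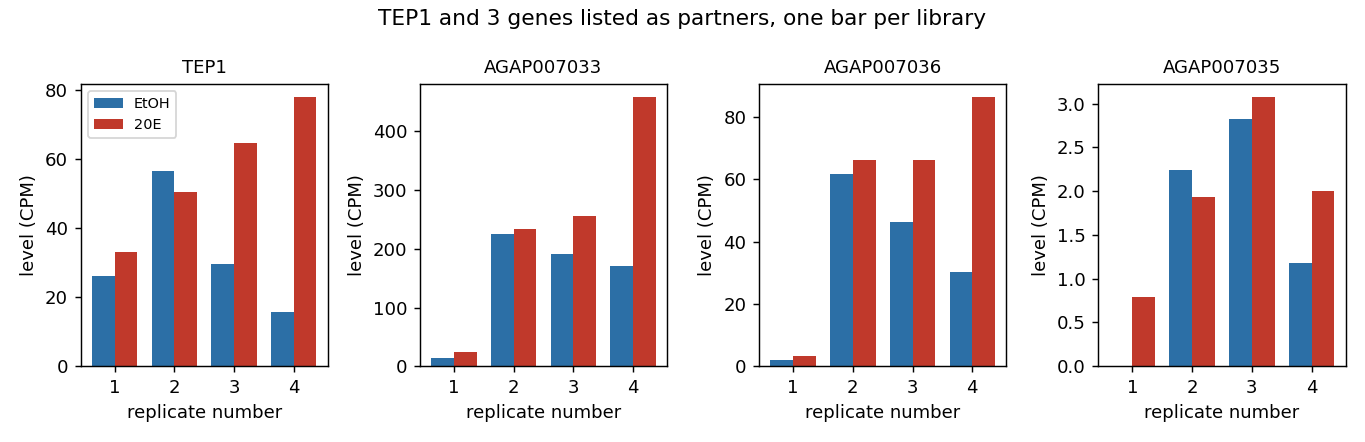
Level in CPM of TEP1 and of 3 identifiers entered as its leucine-rich repeat partners, by replicate number, with blue bars for EtOH and red bars for 20E (axes start at 0 and differ between panels). In replicate 1 the partners are near the bottom of their range while TEP1 is not, and in replicate 4 the red bar is well above the blue for TEP1, AGAP007033 and AGAP007036.

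As TEPs form a family with related sequences, fragments that matched several places in the genome were left out of the counts, and a stretch shared between members would be undercounted. How far this touched each TEP was not tested. In RNA from a whole culture, fewer cells making a transcript and less transcript per cell cannot be told apart.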

How the data were processed

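RNA-seq was made from 8 Sua 4.0 libraries (4 20E, 4 EtOH). Per the submitters' processing notes and the study's methods, paired-end reads were aligned to AgamP4 with STAR 2.5.2b and assigned to genes with featureCounts of Subread. Multimapped, chimeric and one-ended fragments were excluded. The strand setting of the counting is not given in the sources used here. The authors deposited 1 table of raw counts per gene with coordinates, where the length equals the whole span for 100% of genes. Libraries held 6865599 to 14878014 counts.

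Genes were filtered with filterByExpr (minimum count 10, minimum total 15), scaled by TMM and tested with edgeR 4.0.16 (quasi-likelihood, R 4.3.3, treatment only, Benjamini-Hochberg over 8180 genes, call at an adjusted p of 0.1, the limit that the study used). Each SE was obtained by dividing the size of the fold change by the root of its F statistic. A second fit took replicate as a blocking factor, because the labels number the replicates in both groups and same-numbered libraries deviated together (correlations 0.822, 0.703, 0.787 and 0.626). Because the block changed calls, both fits are printed. No libraries looked like duplicates (chi-square per degree of freedom at least 65.3 between same-group libraries). Member pairs were compared by an exact permutation test of within-library log2 ratios (pseudocount 0.5, members with a count in every library and a mean of at least 10). Alternatives used DESeq2 1.42.0, limma-voom 3.58.1, other filters, scalings and pseudocounts, and left-out replicates. The edgeR quasi-likelihood fit, with and without the block, was first tried on simulated counts, and the other tests were not.

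The text names all TEPs, the called genes and the 4 leucine-rich repeat entries of the pathway list, called genes within 20 kb of a called TEP and, of the 3 most correlated genes of each tested TEP, the first. AGAP008363 and AGAP008369 were named after their values were seen. The members and lists were chosen with earlier results of these data known.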

Additional observations from a re-analysis of the deposited data

Results flagged for a closer look

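In 2 cases a library stood apart from the rest of its group by Dixon's test at the 95% level, out of 20 comparisons (14 of a TEP's level within a group and 6 of a TEP's pair ratios), where chance gives about 1 in 20. TEP6 in EtOH replicate 4 was at 15.02 CPM, while the other EtOH libraries were at 25.6 to 26.5 CPM, and this library is the denominator of the largest pair ratio of TEP6. TEP12 in 20E replicate 1 reached 3.15 CPM, where the other 20E libraries had 0.231 to 0.553 CPM. TEP9 in 20E replicate 1 was at 0.157 CPM, which is 1 count, against 0 in the others; a lone count among zeros passes this test by construction and is not among the 2.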

How the results depend on the processing

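The replicate block, which uses the pairing, made the main difference. Genes called numbered 65 without it and 1427 with it, 1540 with the block and no filter, 1290 with the block in DESeq2, 1592 with the block in limma-voom, and 1305, 1224, 844 and 870 with the block and without replicate 1, 2, 3 or 4 of both groups. Without the block DESeq2 gave 195, the likelihood-ratio test 147 and a limit of 0.05 gave 32, and leaving out a single library gave 16 to 65. TEP genes called numbered 0 without the block and 4 with it. In the same order of block settings they numbered 5, 3, 5 and then 3, 5, 2 and 2, with 1 in DESeq2 and 1 by the likelihood-ratio test without the block, and 0 to 1 with a library left out. Complement-list genes called numbered 0 without the block and 6 with it, then 7, 6, 7 and 4, 6, 3 and 2, and 0 with any single library left out. TEP pairs called numbered 6, against 0 by the paired exact sign-flip test, which cannot go below p = 0.125, and 0 to 6 with a library left out (0 without replicate 3 or 4 of either group). The log2 fold change of TEP3 turned negative with the block without replicate 4 (-0.0221), and ran from -0.17 to 0.20 with a library left out, against 0.02 with all of them. Most block settings were added after seeing the data. Exon or coding lengths, planned for the levels, were not used here. Leaving out the low-count filter without the block and changing the pseudocount to 0.1 or 2 left the count of TEPs and of pairs called as they were. TEP2, TEP4, TEP6 and TEP15 passed the limit in the fit with the block and not in that without it, with no change of direction. TEP4, TEP9 and TEP12 are limited by their low counts.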
